A study of Mus musculus with 9 samples.

Results

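The genes described here encode the enzymes and transporters that take glucose into the muscle fibre, break it down to lactate, store it as glycogen and release it again. They were chosen by name, as the rows of the count table whose Ensembl identifier belongs to one of 35 listed gene symbols. The 35 symbols gave 36 rows of the 55471 genes counted, because the symbol Aldoa has a second locus. All 36 rows passed the filter on low counts.

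Glycolysis splits a glucose molecule into pyruvate and pays for muscle contraction when oxygen delivery lags behind. Several of its steps are catalysed by enzymes that come as a muscle isoform and a widely expressed isoform from separate genes, and during muscle maturation the muscle isoform takes over from the other. Glycogen is the fibre's own glucose store: glycogen phosphorylase releases sugar units from it and is switched on by phosphorylase kinase, a calcium-sensing enzyme that links glycogen breakdown to contraction.

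RNA from the gastrocnemius, a calf muscle, of 5 *Shank3Δ11(−/−)* mice (KO1 to KO5) and 4 *Shank3(+/+)* controls (WT1 to WT4) was sequenced, with 1 library per mouse. All mice were on the C57BL/6 background and were taken at postnatal day 0 to 1. The KO mice are homozygous for a deletion of exon 11 of Shank3, which encodes a scaffold protein, and by the study's account some of its isoforms are still made in them. The study's methods leave out KO2 and KO4 because of their read numbers, so the genotypes were compared over the remaining 3 KO mice, KO1, KO3 and KO5, and the 4 WT mice. The values of KO2 and KO4 are printed beside the others, and every test was repeated with all 9 mice.

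The libraries held 26444372 to 40471957 counts, with 28211941 in KO2 and the highest total in KO4. Shank3 itself was counted at 25.7 to 38.5 CPM (counts per 1000000 counts of the library, scaled by TMM over the 9 mice) and the genotypes overlapped (log2 fold change -0.12 ± 0.11 (SE), exact p = 0.314). That value sums all exons of the gene and therefore does not check the deletion. Markers of the labelled tissue were high, with Acta1, the actin of the skeletal muscle fibre, at 17417 to 21201 CPM. Xist, transcribed from the inactive X chromosome, reached at least 618 CPM in 2 KO mice (KO3 and KO5) and 2 WT mice (WT3 and WT4) and did not exceed 3.23 CPM elsewhere, so both sexes were present in both genotypes. KO1 stood apart in red blood cell genes (summed 5779.5 CPM against 1226 to 2193 CPM in the other mice). KO5 stood apart in adipocyte genes (343 CPM against 39.2 to 104 CPM) and in Schwann cell genes (464 CPM against 113 to 239 CPM). KO4 stood apart in cartilage cell genes (205 CPM against 29.0 to 66.1 CPM) and was highest in fibroblast genes (31180.5 CPM against 15029 to 24673 CPM).

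The newborn muscle held high levels of the glycolytic genes, led by muscle isoforms, in both genotypes. Per kilobase of the longest coding transcript, the highest mean level over the 9 mice was that of Aldoa, the muscle aldolase, at 1987 CPM per kb. It was followed by Eno3, the muscle enolase, at 1594 CPM per kb and by Pgam2, the muscle phosphoglycerate mutase, at 841 CPM per kb. Per kilobase of all annotated exons Eno3 (1434 CPM per kb) came before Aldoa (1057 CPM per kb), so the order of these genes depends on the length used. On the transcript scale Tpi1, triosephosphate isomerase, stood at 779, Ldha, the lactate dehydrogenase A subunit, at 555 and Pkm, pyruvate kinase, at 395 CPM per kb. At the other end were Aldoc, the brain aldolase, at 0.992 CPM per kb and Slc2a3, the neuronal glucose transporter GLUT3, at 1.39 CPM per kb. The 36 rows together took 1.25% to 1.59% of all counts in a mouse.

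No difference between the genotypes was detected in any of these genes. Unless another test is named, an exact p below is that of the 2-sided permutation test of mean log2 CPM over all splits of the mice. In edgeR's quasi-likelihood test with Benjamini-Hochberg adjustment, 0 of 36 rows had an unadjusted p below 0.05, where 2.08% of the 21809 genes tested did (1.16% higher in KO and 0.917% lower). The adjusted p was 0.9996 for each of them, and none was called at p below 0.05 with an adjusted p below 0.25, nor was any gene of the whole table (0%). DESeq2 gave 1 row with an unadjusted p below 0.05 (Phkg1), beside 1.80% of all genes, and limma-voom 0, beside 1.95%. Leaving out KO3 gave 3 (Pfkfb3, Gyg and Ldhb), beside 3.57% of all genes then tested, and leaving out KO1, WT1 or WT3 gave 1 each, beside 4.35%, 1.89% and 1.85%. With all 9 mice the count was again 0 of 36, against 2.03% of all genes. In no row did the values of the 3 KO mice lie wholly above or below those of the 4 WT mice, which happened in 2.83% of all genes. In bulk muscle a difference in the number of cells of a type and a difference in RNA per cell cannot be told apart.

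The fold changes were small and balanced in sign. KO exceeded WT in 19 of the 36 rows and fell short of it in 17. Their median log2 fold change was 0.0042, beside -0.0081 over all genes tested. The median size of the change was 0.092 on the log2 scale, beside 0.10 over all genes. The fold changes ran from -0.37 for Pfkl, the liver phosphofructokinase, to 0.58 for Phkg1, the catalytic subunit of muscle phosphorylase kinase, with standard errors of 0.10 to 0.76. The summed level of the 36 rows was 13484, 13287, 15464, 14263 and 14432 CPM in KO1 to KO5 and 12089, 12562, 15049 and 15861 CPM in WT1 to WT4. The WT mice alone spanned the whole range, WT1 being the lowest and WT4 the highest of the 9.

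**Figure D1:**
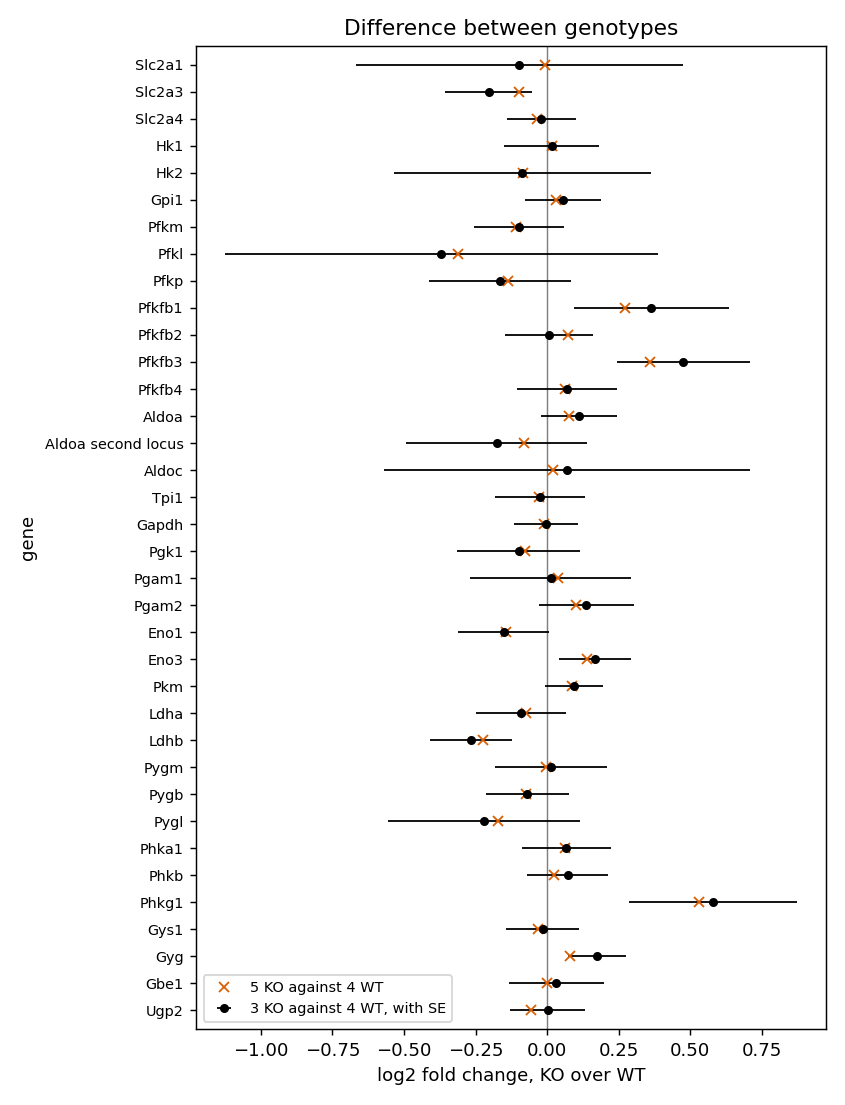
Each row is 1 gene and the x axis is its log2 fold change of KO over WT. Black points with bars show the fit on 3 KO and 4 WT mice with its standard error, and crosses show the fit on 5 KO and 4 WT mice. The points lie on both sides of 0, from -0.37 for Pfkl to 0.58 for Phkg1.

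Enolase turns 2-phosphoglycerate into phosphoenolpyruvate, and its muscle isoform far outweighed the ubiquitous one. Eno3 (chr11:70657202-70662513, plus strand, mm10 with GENCODE M21, as for all positions here) was counted at 2452, 2444, 2571, 2551 and 2974 CPM in KO1 to KO5 and 2179, 2303, 2347 and 2615 CPM in WT1 to WT4. KO5 was the highest of the 9 mice and WT1 the lowest, and the other KO mice lay among the WT values. The means were 2666 ± 274 (SD, n = 3) in KO and 2361 ± 184 (SD, n = 4) in WT, a difference within the spread between mice (log2 fold change 0.17 ± 0.13 (SE), exact p = 0.143), and without KO5 it was 0.077 ± 0.13 (SE) in edgeR. Eno1 (chr4:150236721-150248879, plus strand), the isoform of most tissues, was counted at 364, 414, 448, 349.9 and 337 CPM in KO1 to KO5 and 340.0, 383, 463 and 503 CPM in WT1 to WT4. WT4 was the highest and KO5 the lowest, with the rest mixed (log2 fold change -0.15 ± 0.16 (SE), exact p = 0.486). The exons of Eno1 share 49.5% of their 50-base stretches with other annotated loci, above all Eno1b, so its level is less certain than that of Eno3, which shares none.

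Phosphoglycerate mutase moves the phosphate from carbon to carbon in the step before enolase. Pgam2 (chr11:5801640-5803733, minus strand), its muscle isoform, was counted at 626, 579, 787, 805 and 845 CPM in KO1 to KO5 and 539.7, 673, 664 and 842 CPM in WT1 to WT4. KO5 and WT4 shared the top and WT1 was the lowest, with means of 753 ± 114 (SD, n = 3) in KO and 679.8 ± 124 (SD, n = 4) in WT (log2 fold change 0.14 ± 0.17 (SE), exact p = 0.514). Pgam1 (chr19:41911923-41918660, plus strand), the widely expressed isoform, was counted at 27.4, 27.4, 51.7, 47.2 and 29.6 CPM in KO1 to KO5 and 27.5, 26.4, 50.3 and 38.7 CPM in WT1 to WT4. Its values fell into a high set, KO3, KO4, WT3 and WT4, and a low set of the other 5 mice, with both genotypes in each (log2 fold change 0.012 ± 0.28 (SE), exact p = 0.971). Pgam1 shares 41.5% of its 50-base stretches with pseudogene copies and Pgam2 shares none.

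Glycogen phosphorylase cuts glucose units from glycogen. Its muscle form Pygm (chr19:6384399-6398459, plus strand) was counted at 1053, 1095, 1207, 969 and 992 CPM in KO1 to KO5 and 870.0, 781, 1309.7 and 1307 CPM in WT1 to WT4. WT3 and WT4 were the highest and WT1 and WT2 the lowest of the 9, so the KO mice lay inside the WT range, with means of 1084 ± 111 (SD, n = 3) in KO and 1067 ± 281 (SD, n = 4) in WT (log2 fold change 0.014 ± 0.19 (SE), exact p = 0.800). The brain form Pygb (chr2:150786735-150831758, plus strand) was counted at 50.8, 56.4, 66.2, 51.7 and 48.4 CPM in KO1 to KO5 and 57.4, 47.9, 67.2 and 57.7 CPM in WT1 to WT4. Here KO3 and WT3 were the highest and the rest overlapped (log2 fold change -0.070 ± 0.14 (SE), exact p = 0.686). The liver form Pygl ran from 12.0 to 27.6 CPM (log2 fold change -0.22 ± 0.34 (SE), exact p = 0.800).

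**Figure D2:**
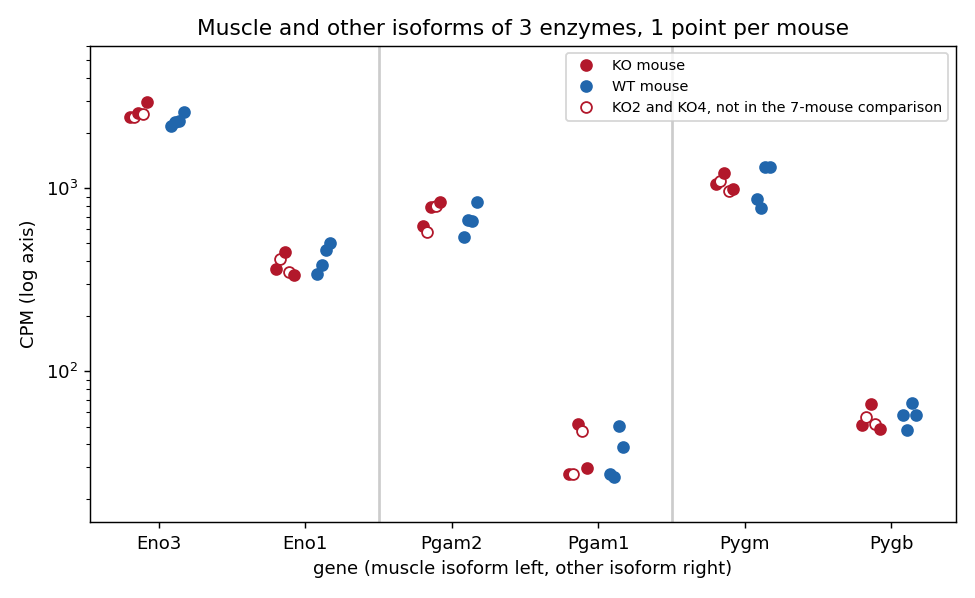
Level in CPM on a log axis of the muscle isoform (left) and the other isoform (right) of enolase, phosphoglycerate mutase and glycogen phosphorylase, with 1 point per mouse. The muscle isoform lay above the other in every mouse, and the KO and WT points overlapped for all 6 genes.

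The balance of muscle and other isoform was read within each mouse as the log2 ratio of their counts, which no scaling between libraries can move. Eno3 exceeded Eno1 by 5.07 to 8.82 times in counts and by 6.57 to 11.4 times per kilobase of transcript. The log2 ratios of Eno3 to Eno1 were 2.75, 2.56, 2.52, 2.87 and 3.14 in KO1 to KO5 and 2.68, 2.59, 2.34 and 2.38 in WT1 to WT4. KO5, KO4 and KO1 had the highest ratios, while KO2 and KO3 lay among the WT mice. The KO mean was 0.31 above the WT mean (2-sided exact permutation test over the 7 mice, p = 0.143), and 0.27 above it with all 9 mice (exact p = 0.103). Of the 7 mice, those with high Xist (KO3 and KO5 against WT3 and WT4) differed by 0.47 and those with low Xist (KO1 alone against WT1 and WT2) by 0.12, neither of which was tested.

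Pgam2 exceeded Pgam1 by 13.2 to 28.5 times in counts, with log2 ratios of 4.51, 4.40, 3.93, 4.09 and 4.83 in KO1 to KO5 and 4.30, 4.67, 3.72 and 4.44 in WT1 to WT4. The highest ratio was that of KO5 and the lowest that of WT3, and the groups overlapped (difference 0.14, exact p = 0.629). Pygm exceeded Pygb by 15.1 to 22.6 times, with log2 ratios of 4.37, 4.28, 4.19, 4.23 and 4.36 in KO1 to KO5 and 3.92, 4.03, 4.28 and 4.50 in WT1 to WT4. The KO mice were close together, from 4.19 to 4.37, and the WT mice lay on both sides of them (difference 0.12, exact p = 0.457).

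In all, 13 isoform pairs were compared. In 12 the mean ratio was higher in KO and in 1, Hk2 over Hk1, it was lower, but 0 of the 13 differences had an exact p below 0.05 with 7 or with 9 mice, and in 0 pairs were the groups apart. The smallest p with 7 mice was 0.143, reached by Eno3 to Eno1, by Slc2a4 to Slc2a3 (mean log2 ratio 0.19 higher in KO) and by Ldha to Ldhb (also 0.19 higher), where the smallest p that 3 against 4 mice allow is 0.0286. The pairs share genes and mice and are not independent. The spread between mice was widest for Aldoa over Aldoc, 2.12 on the log2 scale, followed by Slc2a4 over Slc2a1 (1.85) and Pfkm over Pfkl (1.83). Hk2 exceeded Hk1 by only 1.30 to 2.72 times in counts and 1.01 to 2.11 times per kilobase of transcript. For the regulatory subunits of phosphorylase kinase the muscle isoform Phka1 had fewer counts than the liver isoform Phka2 in every mouse but KO1 (count ratio 0.586 to 1.10). Per kilobase of transcript Phka1 was lower than Phka2 in every mouse (ratio 0.416 to 0.781).

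**Figure D3:**
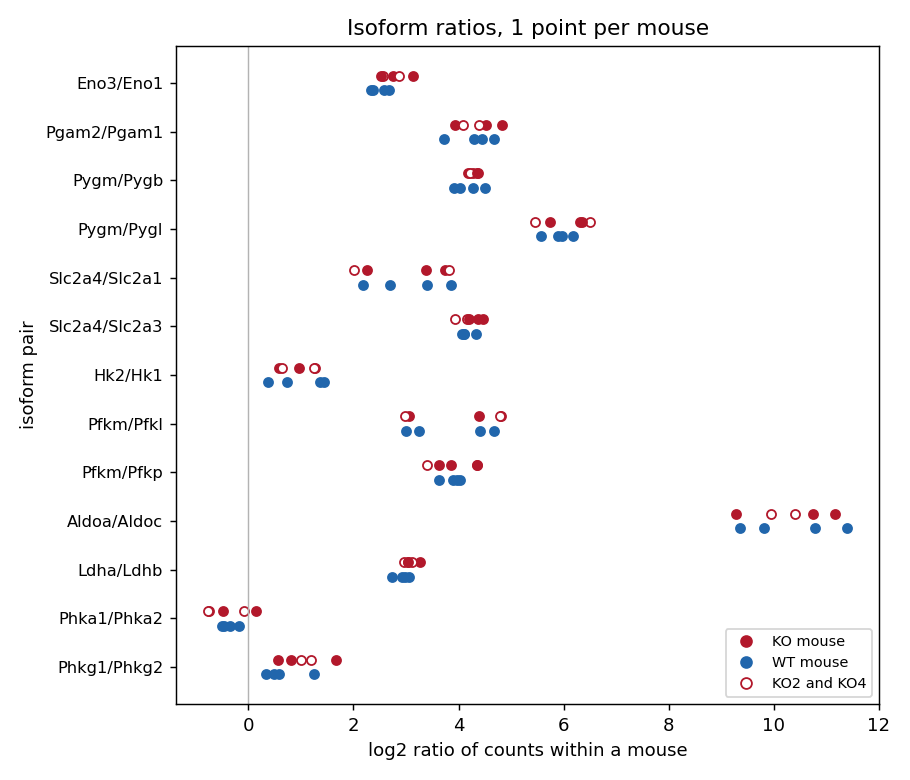
Log2 ratio of the counts of the muscle isoform (first name) to those of the other isoform within each mouse, for 13 pairs. Red points are KO and blue points WT mice, open points are KO2 and KO4, and the points of the genotypes overlap in every pair.

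Glucose enters the fibre through transporters of the Slc2a family. Slc2a4, the insulin-responsive GLUT4, was counted at 100.1, 102, 113, 92.2 and 89.9 CPM in KO1 to KO5 and 92.9, 93.6, 107 and 115 CPM in WT1 to WT4, and all mice lay close together (log2 fold change -0.021 ± 0.12 (SE), exact p = 0.971). Slc2a1, the basal transporter GLUT1 (chr4:119108711-119137983, plus strand), was counted at 7.48, 7.16, 23.5, 22.9 and 8.65 CPM in KO1 to KO5 and 6.37, 8.80, 23.4 and 17.7 CPM in WT1 to WT4. KO3, KO4, WT3 and WT4 held more than the other mice by a wide gap, 2 of each genotype. With KO4 left out of the comparison this high set held KO3 alone against WT3 and WT4, and the genotypes overlapped (log2 fold change -0.10 ± 0.57 (SE), exact p = 0.886). Slc2a3 was counted at 4.54, 5.70, 5.47, 5.99 and 4.89 CPM in KO1 to KO5 and 5.51, 5.40, 6.18 and 5.69 CPM in WT1 to WT4. KO1 and KO5 were the lowest 2 mice, and the third KO mouse of the comparison lay among the WT mice (log2 fold change -0.20 ± 0.15 (SE), exact p = 0.0571). With all 9 mice the log2 fold change was -0.10 ± 0.13 (SE, exact p = 0.310).

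The enzymes from hexokinase to phosphofructokinase trap glucose in the cell and commit it to glycolysis. Hk2, the insulin-regulated hexokinase of muscle (chr6:82725025-82774454, minus strand), was counted at 48.0, 53.0, 112, 100.1 and 72.6 CPM in KO1 to KO5 and 42.7, 53.0, 126 and 105 CPM in WT1 to WT4. The mice numbered 3 and 4 were again the highest in both genotypes, with KO5 next (log2 fold change -0.086 ± 0.45 (SE), exact p = 0.943). Hk1 had the same 4 mice on top over a narrower range of 31.9 to 46.5 CPM. Pfkl (chr10:77986947-78010083, minus strand) was counted at 19.9, 24.1, 84.8, 74.3 and 32.0 CPM in KO1 to KO5 and 23.2, 26.8, 100.4 and 83.4 CPM in WT1 to WT4. Its highest value was 5.04 times its lowest, and the wide gap ran between the mice numbered 3 or 4 and the rest, not between genotypes (log2 fold change -0.37 ± 0.76 (SE), exact p = 0.771). That fit took no account of the replicate numbers. Each of KO1 to KO4 lay below the WT mouse of its own number, though the labels give these numbers no meaning. Blocking on them over all 9 mice, where KO5 has no partner, gave Pfkl an unadjusted edgeR p below 0.05. It was not called there after adjustment. Pfkp, the platelet form, ranged over 32.6 to 65.1 CPM with KO3, KO4, WT3 and WT4 on top. Pfkm, the muscle phosphofructokinase, was the main form at 561 to 805 CPM (log2 fold change -0.10 ± 0.16 (SE), exact p = 0.629), and Gpi1, glucose-6-phosphate isomerase, was at 533 to 712 CPM (log2 fold change 0.055 ± 0.13 (SE), exact p = 0.571).

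Fructose 2,6-bisphosphate, the strongest activator of phosphofructokinase, is made and removed by the 4 Pfkfb enzymes. Pfkfb3 (chr2:11471433-11554077, minus strand), the inducible form, was counted at 7.23, 6.69, 6.07, 6.30 and 11.2 CPM in KO1 to KO5 and 6.49, 4.40, 6.89 and 5.59 CPM in WT1 to WT4. KO5 stood above all other mice, while the other KO mice lay within or just above the WT values. Its difference had the smallest edgeR p among the 36 rows (log2 fold change 0.48 ± 0.23 (SE), exact p = 0.171), and without KO5 it was 0.18 ± 0.21 (SE). With a replicate block in the 7 mice, in which KO5, WT2 and WT4 have no partner, it turned to -0.016 ± 0.17 (SE). Pfkfb1 had the same shape, with 5.35 CPM in KO5 and 2.30 to 3.55 CPM elsewhere (log2 fold change 0.36 ± 0.27 (SE), exact p = 0.400). Pfkfb2 (9.75 to 14.5 CPM) and Pfkfb4 (11.6 to 19.2 CPM) showed no such mouse.

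From aldolase to lactate, Aldoa, Tpi1, Pkm and Ldha were at high levels in every mouse. Aldoa ranged over 2629 to 3505 CPM (log2 fold change 0.11 ± 0.13 (SE), exact p = 0.314), and its second locus, directly next to the first on chromosome 7, over 0.800 to 2.02 CPM. Tpi1 was at 1051 to 1483 CPM, Pkm at 902 to 1035 CPM (log2 fold change 0.094 ± 0.10 (SE), exact p = 0.0857) and Ldha at 851 to 1199 CPM (log2 fold change -0.091 ± 0.16 (SE), exact p = 0.714). Gapdh, glyceraldehyde-3-phosphate dehydrogenase, was counted at only 193 to 239 CPM, and Pgk1, phosphoglycerate kinase, at 217 to 365 CPM. Both share sequence with other loci: 58.4% of the 50-base stretches of Gapdh recur in 218 other annotated genes, and 68.0% of those of Pgk1 recur in 5 others, and how reads with several matches were counted is not given in the sources used here. Aldoc ranged over 1.00 to 5.47 CPM, the largest ratio of highest to lowest mouse among the 36 rows (5.45).

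Ldhb, the heart-type lactate dehydrogenase subunit (chr6:142490249-142507957, minus strand), was counted at 97.9, 116, 137, 124 and 106 CPM in KO1 to KO5 and 112, 137, 144 and 149 CPM in WT1 to WT4. KO1 was the lowest of the 9 mice and KO5 the next, while KO3 lay among the WT mice (log2 fold change -0.27 ± 0.14 (SE), exact p = 0.171). With all 9 mice the log2 fold change was -0.22 ± 0.12 (SE, exact p = 0.119), and with a replicate block in the 7 mice -0.14 ± 0.11 (SE). Summed markers of slow fibres, which are rich in this subunit, were 2777, 2833, 3233, 3357 and 2039.8 CPM in KO1 to KO5 and 2991, 3298, 3537 and 3829 CPM in WT1 to WT4. Of the 7 slow fibre markers all were lower in KO, and 3 (Myl3, Tnnt1 and Tnnc1) had an unadjusted p below 0.05, beside 0.917% of all genes, while none passed the adjustment (edgeR, adjusted p = 0.9996). With all 9 mice all 7 were again lower and 1 (Tnnc1) had an unadjusted p below 0.05, beside 2.03% of all genes in either direction. KO5 and KO1 were the lowest 2 mice in that sum too, and its part in the Ldhb values was not tested.

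Phosphorylase kinase is built of regulatory, catalytic and calmodulin subunits. Phkg1 (chr5:129863421-129898549, minus strand) was counted at 24.4, 29.4, 35.1, 43.5 and 62.2 CPM in KO1 to KO5 and 22.2, 24.0, 35.3 and 26.5 CPM in WT1 to WT4. KO5 was the highest mouse and WT1 the lowest, and KO1, KO2 and KO3 lay among the WT mice. The difference had the largest fold change of the list (log2 fold change 0.58 ± 0.29 (SE), exact p = 0.257), was 0.53 ± 0.25 (SE, exact p = 0.151) with all 9 mice and was 0.13 ± 0.21 (SE) without KO5. With the replicate number as a block it was 0.058 ± 0.12 (SE) in the 7 mice, a fit in which KO5, WT2 and WT4 have no partner and do not inform the difference, and 0.29 ± 0.12 (SE) with 9 mice, where KO5 has no partner. Its exons overlap those of Sumf2 on the opposite strand over 9.68% of their length, and without strand information reads of the overlap cannot be told apart. Phka1 ranged over 31.6 to 55.7 CPM and was lowest in KO4, WT4, KO3 and WT3, the reverse of Pfkl. Phkb ranged over 54.2 to 81.5 CPM (log2 fold change 0.072 ± 0.14 (SE), exact p = 0.600).

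For glycogen synthesis, the muscle glycogen synthase Gys1 was at 115 to 164 CPM (log2 fold change -0.016 ± 0.13 (SE), exact p = 1.00), the branching enzyme Gbe1 at 24.2 to 38.0 CPM and Ugp2, which makes the UDP-glucose donor, at 286 to 399 CPM. Gyg, glycogenin, the protein primer on which a glycogen particle starts (chr3:20122084-20155317, minus strand), was counted at 94.3, 76.1, 80.0, 72.0 and 94.0 CPM in KO1 to KO5 and 78.8, 76.9, 84.3 and 75.2 CPM in WT1 to WT4. KO1 and KO5 were the highest 2 mice, and KO2, KO3 and KO4 lay within or below the WT values (log2 fold change 0.17 ± 0.10 (SE), exact p = 0.0857). With all 9 mice the log2 fold change was 0.080 ± 0.10 (SE, exact p = 0.444), and with a replicate block in the 7 mice 0.088 ± 0.12 (SE).

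**Figure D4:**
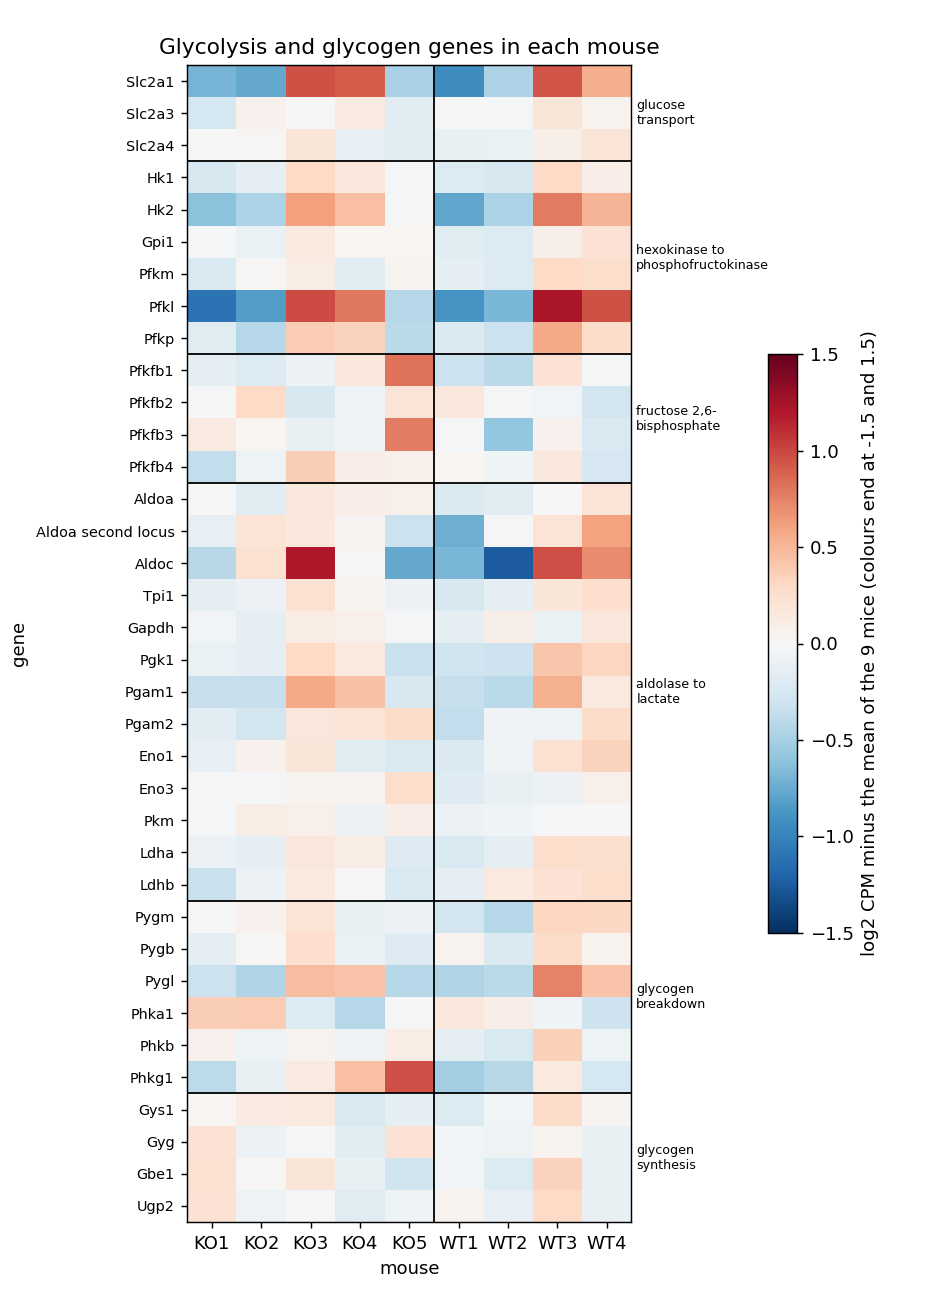
Log2 CPM of each of the 36 rows in each mouse, relative to the mean of that row over the 9 mice, ordered by role with KO mice left of the vertical line. Red is above and blue below the mean. Slc2a1, Hk2, Pfkl, Pgam1 and Pygl are red in KO3, KO4, WT3 and WT4 and blue or pale in the other mice, and KO5 is the deepest red in Pfkfb1, Pfkfb3 and Phkg1.

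Some of these genes varied between mice of both genotypes alike. KO3, KO4, WT3 and WT4 were the 4 highest of the 9 mice in 11 of the 36 rows, namely Slc2a1, Hk1, Hk2, Gpi1, Pfkl, Pfkp, Tpi1, Pgk1, Pgam1, Ldha and Pygl, where 5.60% of all genes tested had these 4 mice on top. They were the 4 lowest in 2 rows, Pfkfb2 and Phka1, against 5.16% of all genes. This division was noticed in the values themselves and was given no test. Since KO4 was left out of the main genotype comparison, the set was there made up of KO3 alone in KO and of WT3 and WT4 in WT. The labels offer the numbers 3 and 4 only as replicate numbers, and what else these mice share was not tested. Xist was high in KO3, WT3 and WT4 but low in KO4, and it was high in KO5. The totals of these 4 libraries were 29102381 to 40471957 counts, beside 26444372 to 33958955 in the other 5. Of the muscle isoforms Hk2 and Ldha were among the 11, while Eno3, Pgam2, Pygm, Pfkm, Aldoa and Slc2a4 did not have these mice as their 4 highest.

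Pfkl showed the pattern most widely, at 74.3 to 100.4 CPM in those 4 mice and 19.9 to 32.0 CPM in the other 5. Slc2a1 lay at 17.7 to 23.5 CPM and 6.37 to 8.80 CPM. Pygl, the liver phosphorylase, lay at 22.0 to 27.6 CPM and 12.0 to 13.2 CPM. The 11 genes thus include isoforms known from liver, platelet and most other tissues beside Hk2 and Ldha of muscle. Outside the list, and picked after its values were seen, Fbp2, the muscle fructose-1,6-bisphosphatase that runs the phosphofructokinase step backwards, was counted at 89.2, 71.9, 11.5, 10.2 and 142 CPM in KO1 to KO5 and 79.3, 75.3, 12.8 and 17.1 CPM in WT1 to WT4. It was lowest in the same 4 mice, and the values of the genotypes overlapped (log2 fold change 0.81 ± 1.04 (SE), exact p = 0.629).

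**Figure D5:**
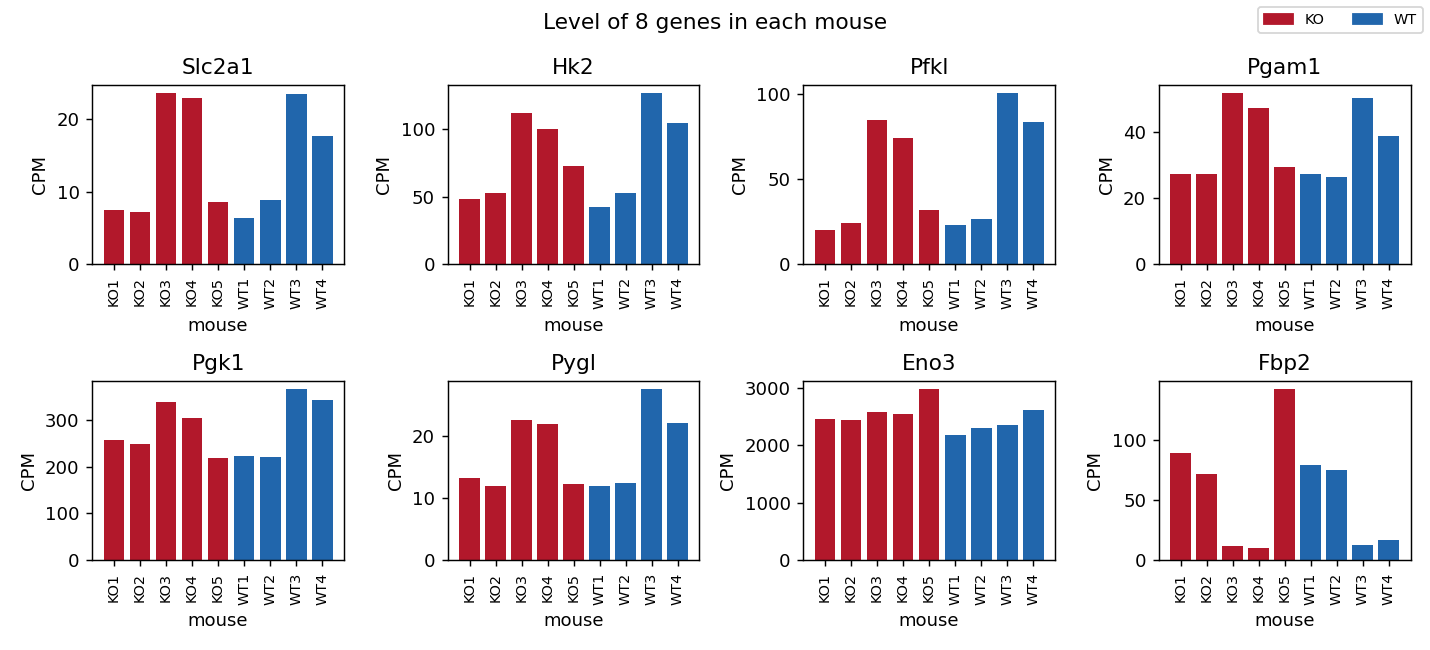
Level in CPM of 8 genes in each mouse, on axes that start at 0, with KO in red and WT in blue. Slc2a1, Hk2, Pfkl, Pgam1, Pgk1 and Pygl are highest in KO3, KO4, WT3 and WT4, Eno3 is nearly level, and Fbp2 is lowest in those 4 mice.

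Several of these genes are textbook targets of transcription factors that bind ACGTG, the core of the hypoxia response element, and that motif was looked for in the 250 bases before each start site in RefSeq's promoter table for GRCm38.p6. A window was found for 33 of the 35 symbols. ACGTG, on either strand, occurred in a window of 14 of the 33 genes (42.4%), where 18.5% of the 27025 genes in that table hold it. Some genes have several windows, 51 in all for the 33 genes and 32851 for all genes. Per window the shares were 35.3% and 16.6%. The E-box CANNTG, whose form CACGTG also holds ACGTG, occurred in 66.7% of the 33 and 69.3% of all genes. Of the 11 genes highest in KO3, KO4, WT3 and WT4, 6 held ACGTG, as did 8 of the other 22. The 5 of the 11 without it were Hk1, Gpi1, Pfkl, Pfkp and Tpi1, and the muscle isoforms Pfkm, Pygm and Aldoa held it outside the 11. A match describes the letters alone and shows no binding.

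The windows of 4 genes are shown, picked after the matches were known as 1 gene with and 1 without ACGTG among the 11 (Hk2 and Pfkl) and among the muscle isoforms outside them (Pygm and Eno3). Each runs 5′ to 3′ up to the base before the start site, with capitals for ACGTG or its reverse complement CACGT. They lie at chr6:82774455-82774704 on the minus strand (Hk2), chr10:78009808-78010057 on the minus strand (Pfkl), chr19:6384158-6384407 on the plus strand (Pygm) and chr11:70656926-70657175 on the plus strand (Eno3).
Hk2: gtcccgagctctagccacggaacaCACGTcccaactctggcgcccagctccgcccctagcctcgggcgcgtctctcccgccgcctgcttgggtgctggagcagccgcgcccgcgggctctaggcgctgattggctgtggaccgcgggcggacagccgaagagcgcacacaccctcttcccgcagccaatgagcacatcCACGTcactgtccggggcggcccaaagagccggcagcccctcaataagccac
Pfkl: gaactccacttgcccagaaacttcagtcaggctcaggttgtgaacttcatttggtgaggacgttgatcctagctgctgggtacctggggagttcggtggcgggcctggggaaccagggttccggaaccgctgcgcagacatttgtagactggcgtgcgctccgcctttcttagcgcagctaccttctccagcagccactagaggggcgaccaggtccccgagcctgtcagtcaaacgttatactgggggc
Pygm: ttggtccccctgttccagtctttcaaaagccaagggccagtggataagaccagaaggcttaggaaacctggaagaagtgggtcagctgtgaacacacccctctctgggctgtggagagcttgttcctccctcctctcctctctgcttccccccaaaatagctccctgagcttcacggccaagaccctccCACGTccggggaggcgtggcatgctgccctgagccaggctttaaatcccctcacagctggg
Eno3: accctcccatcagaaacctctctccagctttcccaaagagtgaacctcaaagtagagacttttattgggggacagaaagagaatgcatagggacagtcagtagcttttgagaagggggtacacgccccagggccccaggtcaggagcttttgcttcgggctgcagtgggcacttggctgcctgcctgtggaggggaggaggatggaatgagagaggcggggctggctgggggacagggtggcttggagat

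Hk2 held 2 matches and Pygm 1, and Pfkl and Eno3 held none in these letters. The GC content was 69.6% for Hk2, 59.2% for Pfkl, 58.4% for Pygm and 57.2% for Eno3, and its part in the number of matches was not tested.

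A further 71 genes of glucose and glycogen metabolism were counted, among them pyruvate dehydrogenase, the pentose phosphate pathway, lactate transporters and the regulators of glycogen. Of these, 65 passed the filter on low counts. KO exceeded WT in 40 of the 65 and fell short in 25, the median log2 fold change being 0.039, and 2 were higher and 0 lower at an unadjusted p below 0.05, beside 1.16% and 0.917% of all genes. Neither passed the adjustment over all genes (edgeR, adjusted p = 0.9996 for both).

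Mlxipl, the carbohydrate response element binding protein that turns on glycolytic and lipogenic genes, was counted at 7.23, 6.48, 6.86, 7.22 and 15.1 CPM in KO1 to KO5 and 5.81, 5.61, 5.73 and 5.46 CPM in WT1 to WT4. All KO mice lay above all WT mice, but 4 of the 5 did so narrowly, and KO5 stood far above (log2 fold change 0.77 ± 0.26 (SE), exact p = 0.0286, the smallest that 3 against 4 mice can give). Without KO5 the log2 fold change was 0.31 ± 0.16 (SE) and its unadjusted p in edgeR was no longer below 0.05. With a replicate block in the 7 mice, in which KO5 has no partner, it was 0.28 ± 0.16 (SE), again with an unadjusted p not below 0.05. KO5 was also the mouse with the most adipocyte RNA, where Adipoq was at 78.6 CPM and Cfd at 145 CPM against at most 9.02 CPM of either in the other mice. The 6 adipocyte markers summed to 104, 51.5, 47.6, 43.5 and 343 CPM in KO1 to KO5 and to 39.2 to 65.1 CPM in WT. KO2, KO3 and KO4 thus lay within the WT range of that sum, and the part of these markers in the result was not tested.

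Bpgm, bisphosphoglycerate mutase, which makes the 2,3-bisphosphoglycerate of red blood cells, was counted at 36.1, 21.1, 19.6, 22.2 and 28.2 CPM in KO1 to KO5 and 22.3, 20.7, 19.2 and 18.1 CPM in WT1 to WT4. KO1 was the highest mouse and KO5 the next, while KO3 lay among the WT mice (log2 fold change 0.47 ± 0.18 (SE), exact p = 0.114). With all 9 mice the log2 fold change was 0.34 ± 0.17 (SE, exact p = 0.151), and without KO1 it was 0.24 ± 0.17 (SE), and its unadjusted p in edgeR was not below 0.05 in either fit, nor when KO5, WT3 or WT4 was left out. The 7 red blood cell markers were all higher in KO, 0 of them with an unadjusted p below 0.05, and summed to 1226 to 5779.5 CPM in the 3 KO mice and 1454 to 2008 CPM in WT. None was at 0 in any group. KO1 was the highest mouse in that sum as in Bpgm, while KO5, the next in Bpgm, was the lowest of the 9 mice at 1226 CPM. The part of these cells in the result was not tested.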

How the data were processed

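RNA of gastrocnemius muscle was sequenced from 9 mice, 1 library each. The counts, as deposited, are the authors' whole numbers of reads per Ensembl gene without normalization. By their methods the authors mapped reads with HISAT2 to mm10 and used featureCounts. For the annotation release, strand setting and multiply matching reads, settings were not given in the sources used here. Symbols and positions came from GENCODE M21. Totals were 26444372 to 40471957 counts per mouse.

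The table was filtered with filterByExpr (minimum count 10, minimum total 15), which left 21809 genes for 7 mice and 21735 for 9, scaled by TMM and fitted with the robust quasi-likelihood test of edgeR 4.0.16 in R 4.3.3, with p-values adjusted by Benjamini-Hochberg over every gene of the fit. A call needed p below 0.05 and an adjusted p below 0.25. Printed CPM were scaled over all 9 mice. Isoform ratios are log2 ratios of counts (offset 0.5), and these and the log2 CPM (prior count 2) of single genes were compared by exact permutation (2-sided, size of the mean difference) over all 35 splits of 7 mice or 126 of 9. The 50-base stretches were matched exactly among GENCODE M21 transcripts. The fit was tested on simulated data. Alternatives were all 9 mice, RLE size factors, other count filters, DESeq2 1.42.0, limma-voom (limma 3.58.1), a replicate block, an Xist term and leaving out each mouse.

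The genes, their groups and the other lists were chosen with earlier results of these data known. Values in every mouse are given for Eno3, Eno1, Pgam2, Pgam1, Pygm, Pygb, Slc2a4 (added as the main muscle glucose transporter), the 3 rows of smallest p in each direction, other pathway genes with an unadjusted p below 0.05, and genes described for the division of the mice, which were picked after their values were seen.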

Additional observations from a re-analysis of the deposited data

Results flagged for a closer look

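Within a genotype, 5 of the 102 sets of values examined (36 rows, 2 further pathway genes and 13 isoform ratios, each in KO and in WT) held a mouse set apart from the rest by Dixon's criterion at the 95% level, where chance alone marks about 1 in 20. In 4 of them the mouse was KO5. Pfkfb1 was at 5.35 CPM in KO5 and 2.65 to 3.41 CPM in the other 4 KO mice, and Pfkfb3 at 11.2 CPM against 6.07 to 7.23 CPM. Eno3 was at 2974 CPM in KO5 against 2444 to 2571 CPM, and Mlxipl at 15.1 CPM against 6.48 to 7.23 CPM. KO5 was also the mouse highest in adipocyte and Schwann cell markers and lowest in slow fibre markers, and the part of these in the values was not tested. The fifth was the log2 ratio of Slc2a4 to Slc2a3, which was 4.33 in WT4 and 4.07 to 4.11 in the other 3 WT mice.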

How the results depend on the processing

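No alternative called a row at p below 0.05 with an adjusted p below 0.25. The count of the 36 rows with an unadjusted p below 0.05, 0 as reported, was 1 with no filter on low counts (Pfkfb3, beside 2.58% of all genes), 1 with DESeq2 (Phkg1, 1.80%), 1 with an Xist term (Ldhb, 2.71%) and 0 to 3 when 1 mouse was left out (1.01% to 4.35%), the 3 without KO3 (3.57%) being Pfkfb3, Gyg and Ldhb. The count of other pathway genes, 2 as reported, was 1 with all 9 mice (beside 2.03% of all genes) and 3 with DESeq2 (Bpgm, Mlxipl and Pdk4, 1.80%). With a replicate block in the 7 mice it was 3 (Bpgm, Pgls and Slc16a7, 3.87%). When 1 mouse was left out it was 1 to 5 (1.01% to 4.35%). It was 5 without KO3 (Bpgm, Mlxipl, Gpd1, Gpd2 and Pdk4, 3.57%) and 1 without KO5 (Pdk4, 1.01%). Without WT3 (1.85%) or WT4 (2.09%) it was 1 (Mlxipl). The median log2 fold change of the rows stayed between -0.11 and 0.10. Some signs turned: Pygm was -0.0043 with all 9 mice and -0.014 with the Xist term, Pgam1 -0.079 with the Xist term, and with 1 mouse left out Pgam1 ran from -0.34 to 0.23, Pygm from -0.11 to 0.14 and Pygb from -0.22 to 0.022. Among the isoform ratios, Aldoa over Aldoc became -0.034 and Phka1 over Phka2 -0.019 with all 9 mice. With 1 mouse left out the ratio differences ran from -0.062 to 0.39 for Pgam2 over Pgam1, -0.22 to 0.52 for Slc2a4 over Slc2a1, -0.24 to 0.13 for Hk2 over Hk1, -0.10 to 0.77 for Pfkm over Pfkl, -0.13 to 0.22 for Pfkm over Pfkp, -0.33 to 0.61 for Aldoa over Aldoc and -0.24 to 0.20 for Phka1 over Phka2. The cause was not tested. The replicate numbers were not taken to pair the mice, since the labels give them no meaning and 1 of the 4 correlations between deviations of same-numbered mice (0.37, 0.052, 0.36 and 0.10) was below 0.1, although all were positive and 5 of 8 mice correlated best with their own number. With a replicate block in the 7 mice (KO5, WT2 and WT4 then have no partner) Eno1 became 0.022, Pfkfb3 -0.016, Phkg1 0.058, Gyg 0.088, Ldhb -0.14 and Mlxipl 0.28, and 0 rows had an unadjusted p below 0.05. With a replicate block in all 9 mice 2 rows (Pfkl and Phkg1) and 1 other pathway gene (Mlxipl) did, beside 2.08% of all genes. With 3 against 4 mice the standard errors of 0.10 to 0.76 limit what could be seen.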

Other observations

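Outside the enzymes described above, 6 genes of fat and glucose handling also set KO3, KO4, WT3 and WT4 apart from the other 5 mice. They were picked after their values were seen, no test was made, and what these mice share was not tested. Scd2, a stearoyl-CoA desaturase of lipid synthesis, was counted at 357 to 530.2 CPM in the 4 mice numbered 3 and 4 and at 131 to 154 CPM in the other 5. Pdk1, a kinase that holds pyruvate back from the mitochondria, was at 113 to 153 CPM against 63.4 to 80.7 CPM, and Slc16a3, the lactate exporter MCT4, at 134 to 175 CPM against 86.4 to 110.0 CPM. The reverse held for the other 3. Ucp3, a mitochondrial carrier of muscle, was at 7.77 to 13.6 CPM in the 4 mice and 31.7 to 57.4 CPM in the others. Cpt1a, which loads fatty acids onto carnitine, was at 18.6 to 22.8 CPM against 51.1 to 77.6 CPM, and Slc25a20, which carries them across the inner mitochondrial membrane, at 23.5 to 36.5 CPM against 60.9 to 82.3 CPM. In none of these 6 genes did the genotypes separate, since each set held 2 WT mice and at least 2 KO mice.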
